A study of Mus musculus with 35 samples.

Results

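The 10 genes followed here include ligands of the interleukin-1 (IL-1) family (Il1a, Il1b, Il18, Il33) and the antagonist of the IL-1 receptor (Il1rn). The others code for that receptor, its accessory chain and decoy (Il1r1, Il1rap, Il1r2), the inflammasome protease (Casp1) and tumour necrosis factor (Tnf). All 10 were chosen by name, as all probe sets annotated to these genes alone. They comprised 17 of the 45101 probe sets and 10 of the 18193 genes measured. All mice were male FVB mice, either wild type or lacking the beta2 adrenergic receptor, a receptor for adrenaline and noradrenaline; the labels give no age. Middle cerebral artery occlusion (MCAO), a model of ischemic stroke, was followed after 24 h by removal of the whole ischemic hemisphere in 7 wild type and 7 knockout arrays. Sham controls (3 arrays of each genotype) gave the hemisphere of the same side, and 8 wild type and 7 knockout naive arrays came from a hemisphere of unoperated mice. RNA was hybridised to Affymetrix arrays, and values are log2 signals after robust multi-array averaging (RMA), in which 1 unit is a doubling. Naive and surgery arrays were normalized in separate runs, so levels are compared only within each set. The labels do not say whether arrays are separate animals, or how much of a hemisphere was ischemic, and p-values measure the spread between arrays.

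IL-1alpha and IL-1beta signal through Il1r1 together with Il1rap, and recruit Myd88 and the Irak kinases to activate NF-kappaB. The antagonist encoded by Il1rn occupies the receptor without signalling, and the decoy receptor encoded by Il1r2 binds IL-1 without passing a signal on. Pro-IL-1beta and pro-IL-18 are cut to their active forms by caspase-1 in the inflammasome, so a transcript level does not report the active cytokine. IL-33 is a nuclear alarmin of astrocytes and oligodendrocytes released by damaged cells. In whole tissue, fewer cells of a type and less RNA per cell cannot be told apart.

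The labelled tissue was checked on defining markers, and lists of neuronal, astrocytic and oligodendrocytic genes averaged at least 10.81, 10.04 and 10.41 on every array. Wild type naive array 6 stood apart, with a median correlation of 0.817 with its own group, against 0.979 or more for every other array, and 3 prime minus 5 prime control differences of 3.51 for Gapdh and 4.88 for actin, where high values accompany degraded RNA. Knockout MCAO arrays 2 and 5 had raised Gapdh differences (0.383 and 1.18, against -0.271 to 0.00137 on the other surgery arrays). The actin difference was 1.60 to 1.76 on the knockout sham arrays and 0.863 to 1.01 on the wild type sham arrays, so any comparison of the sham groups carries this difference as well. Several results on which these arrays bear are given with and without them, though not all. The median signal over all probe sets was 7.03 to 7.05 on the knockout naive arrays. On the wild type naive arrays it was 6.87 to 6.94, so any comparison of the naive groups carries this offset.

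The upstream sequences of 3 of the genes are shown, and no result below depends on them. Il18 is shown because it separated the genotypes. Il1rn and Il1r1 rose after MCAO and were picked because they have a motif of an inflammatory transcription factor upstream. Each is the 250 bases before a RefSeq start site (GRCm38.p6), 5 prime to 3 prime on the strand of the gene, with capitals for a motif match; Il1rn and Il1r1 have further annotated starts, and the first window of Il1rn and the second of Il1r1 are shown.
Il18, chr9:50554450-50554699, plus strand: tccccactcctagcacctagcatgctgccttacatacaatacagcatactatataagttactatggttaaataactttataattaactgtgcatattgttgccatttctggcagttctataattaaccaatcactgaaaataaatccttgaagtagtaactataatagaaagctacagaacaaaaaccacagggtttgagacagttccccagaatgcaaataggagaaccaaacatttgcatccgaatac
Il1rn, chr2:24336610-24336859, plus strand: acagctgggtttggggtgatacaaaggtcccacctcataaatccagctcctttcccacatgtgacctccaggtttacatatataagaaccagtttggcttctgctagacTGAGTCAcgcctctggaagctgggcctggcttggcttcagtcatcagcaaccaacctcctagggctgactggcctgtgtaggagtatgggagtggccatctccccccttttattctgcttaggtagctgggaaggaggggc
Il1r1, chr1:40266336-40266585, plus strand: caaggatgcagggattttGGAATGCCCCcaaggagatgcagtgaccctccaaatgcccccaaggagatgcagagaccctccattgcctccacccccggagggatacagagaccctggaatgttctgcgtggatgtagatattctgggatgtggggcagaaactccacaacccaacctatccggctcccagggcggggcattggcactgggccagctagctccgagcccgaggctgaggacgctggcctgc
The search covered both strands for the kappaB consensus and for the AP-1 motif TGANTCA, in all 14 windows of the 10 genes. The AP-1 motif occurred in the Il1rn window shown, starting at -141, and in that of Il1a, starting at -12; 6.749% of 32851 RefSeq windows of this length have it. The kappaB consensus occurred in 1 of the 14 windows, that of Il1r1 shown, starting at -232, against 7.251% of all windows. No window of Il33, Il1b, Il1r2 or Il1rap, which also rose after MCAO in wild type mice, held either motif. Neither motif occurs in the 250 bases of Il18 shown; a match is a description of letters and not a binding site.

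After MCAO, 6 of the 10 genes rose in wild type mice (limma, with p adjusted by Benjamini-Hochberg across the whole array and called under 0.05), and none fell. Il33 and the antagonist Il1rn rose most, 4.84-fold and 4.24-fold, ahead of Il1b (2.43-fold), Il1r2 (2.19-fold), Il1r1 (2.10-fold) and Il1rap (2.02-fold). Il1a, Tnf, Casp1 and Il18 did not pass the test. Of all genes, 8.68% were called higher and 7.27% lower in this comparison. The median difference of the 10 genes was 1.04, against 0.0456 over all genes. In knockout mice Il33, Il1rn, Il1rap and Il1r1 rose and none of the 10 fell, where 16.1% of all genes were called higher and 8.9% lower; the median of the 10 genes was 0.46, against -0.0045 over all genes. These 6 and 4 genes passed the test under each of the other settings run in which they were measured and in each of 20 fits without 1 array.

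**Figure D1:**
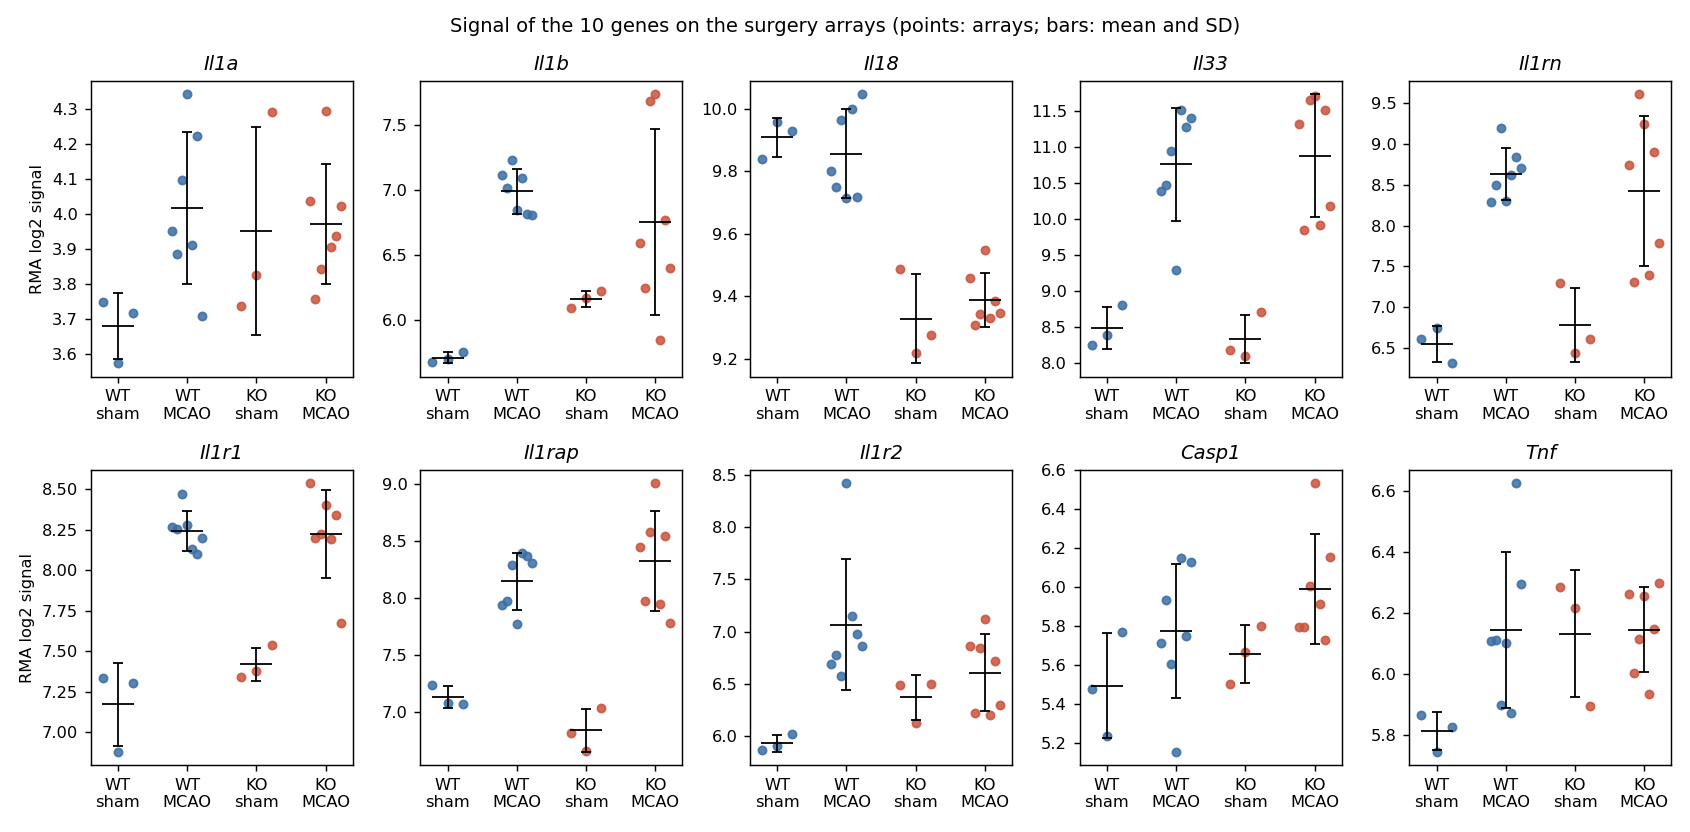
RMA log2 signal of the 10 genes on the 20 surgery arrays, 1 panel per gene with its own vertical scale (WT, wild type; KO, knockout; points are arrays, bars the group mean and SD). Il33, Il1rn, Il1r1 and Il1rap separate MCAO from sham in both genotypes, and Il18 separates the genotypes (knockout 9.22 to 9.55, wild type 9.72 to 10.05).

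Il1b, the main secreted IL-1 ligand, measured 5.67, 5.69 and 5.75 on the wild type sham arrays and 6.80 to 7.23 (median 7.02) on the 7 wild type MCAO arrays. All MCAO arrays lay above all sham arrays, and the rise was 1.28 (SE 0.28, adjusted p = 0.00356 by limma). Knockout sham arrays measured 6.09, 6.17 and 6.22, each above every wild type sham array, and the knockout MCAO arrays spread from 5.84 to 7.74 (median 6.59). Knockout MCAO array 5 lay below its sham group, while arrays 3 and 4, at 7.69 and 7.74, lay above every wild type MCAO array. The SD of Il1b was 0.72 over the knockout MCAO arrays and 0.17 over the wild type ones. The knockout difference of 0.59 (SE 0.28) was not called (adjusted p = 0.121). It was called with array weights (0.53, adjusted p = 0.0471), with Gapdh array quality as a covariate (0.89, adjusted p = 0.0181), and without knockout MCAO array 5 (0.75, adjusted p = 0.0368) or arrays 2 and 5 (0.88, adjusted p = 0.0125). In the fit without arrays 2 and 5, 3680 of all genes were called in this comparison, against 4545 with all arrays. For the other 3 settings the share of all genes called was not counted.

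Il1a, a ligand of the same receptor, measured 3.57 to 3.75 after sham and 3.71 to 4.34 (median 3.95) after MCAO in wild type mice, where the groups overlapped and the difference of 0.34 was not called (SE 0.14, adjusted p = 0.0983). In knockout mice it measured 3.73, 3.82 and 4.29 after sham and 3.76 to 4.29 after MCAO, a difference of 0.02.

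Il33 measured 8.25, 8.38 and 8.81 on the wild type sham arrays and 9.29 to 11.52 (median 10.95) after MCAO. On the knockout arrays it went from 8.10, 8.17 and 8.71 to a range of 9.84 to 11.71 (median 11.32). Every MCAO array of either genotype lay above every sham array, with rises of 2.27 in wild type (SE 0.44, adjusted p = 0.00144) and 2.55 in knockout mice (SE 0.44, adjusted p = 0.000355 by limma). Wild type MCAO array 4, at 9.29, was the lowest of its group, and knockout MCAO arrays 2, 5 and 7, at 9.84, 9.92 and 10.19, formed a lower set than the other 4 (11.32 to 11.71). With knockout MCAO arrays 2 and 5 left out, the knockout rise of Il33 was 2.95. Il18, by contrast, was level across surgery: 9.84 to 9.96 and 9.72 to 10.05 in wild type sham and MCAO, a difference of -0.05 (SE 0.093, adjusted p = 0.726), and 0.06 in knockout mice (adjusted p = 0.659).

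Il1rn measured 6.31, 6.61 and 6.74 after sham and 8.29 to 9.19 (median 8.63) after MCAO in wild type mice. The knockout sham arrays measured 6.44, 6.61 and 7.30, and the knockout MCAO arrays 7.30 to 9.61 (median 8.74). Each MCAO group lay above its sham group, narrowly in the knockout, where MCAO array 2 and sham array 1 both rounded to 7.30. The rise was 2.08 in wild type (SE 0.38, adjusted p = 0.000914) and 1.64 in knockout mice (SE 0.38, adjusted p = 0.00387 by limma). Without knockout MCAO arrays 2 and 5 the knockout rise was 2.07. The gene has 3 probe sets. The second, 1451798, moved further, 3.24 in wild type mice and 2.73 in the knockout. The third, 1425663, moved less, 1.07 in wild type (adjusted p = 0.0346) and 0.59 in knockout mice (adjusted p = 0.20, not called).

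Il1r1, the signalling receptor, measured 6.88, 7.30 and 7.33 after sham and 8.10 to 8.47 (median 8.25) after MCAO in wild type mice. The knockout arrays measured 7.34, 7.38 and 7.54 after sham and 7.68 to 8.54 (median 8.23) after MCAO. Groups did not overlap in either genotype. The rise was 1.07 in wild type (SE 0.14, adjusted p = 3.1e-05) and 0.81 in knockout mice (SE 0.14, adjusted p = 0.000343 by limma). A second probe set of Il1r1, 1459777, had signals of 3.19 to 3.60 on the surgery arrays and was not called after MCAO in either genotype, and the mean of both probe sets rose by 0.58 and 0.33.

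Il1rap, the accessory chain that IL-1 and IL-33 receptors share, has 5 probe sets that did not move together. The brightest on the surgery arrays, 1421844, measured 7.07, 7.08 and 7.24 after sham and 7.77 to 8.39 (median 8.28) after MCAO in wild type mice. On the knockout arrays it went from 6.66, 6.82 and 7.04 to between 7.78 and 9.01 (median 8.44). It rose by 1.02 in wild type (SE 0.20, adjusted p = 0.00168) and by 1.48 in knockout mice (SE 0.20, adjusted p = 3.27e-05 by limma), with no overlap in either. With knockout MCAO arrays 2 and 5 left out, its knockout rise was 1.63. A second probe set, 1421843, rose by 0.72 and 0.71. Of the other 3, 1449585 was at 0.70 and 0.73, 1439697 at -0.18 and 0.21 and 1442614 at -0.57 and -0.28, none of them called. The mean of the 5 probe sets rose by 0.34 in wild type (adjusted p = 0.0289) and 0.57 in knockout mice (adjusted p = 0.0006), so the size of the Il1rap change depends on the probe set.

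**Figure D2:**
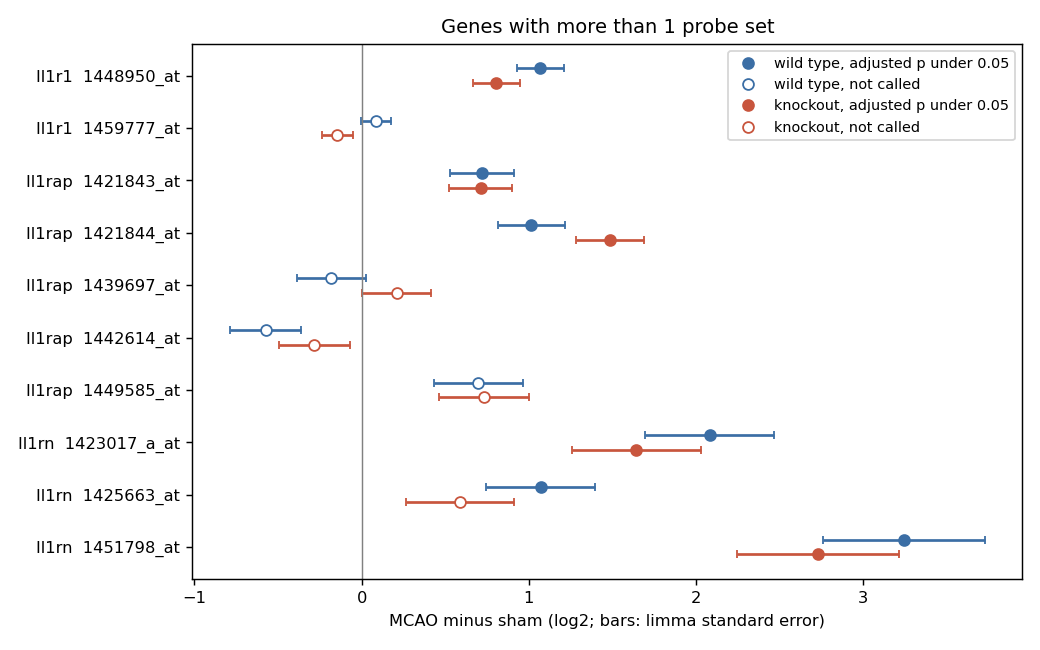
MCAO minus sham difference in log2 signal for each probe set of the 3 genes that have more than 1, in wild type (blue) and knockout (red) mice; bars are limma standard errors and filled points have an adjusted p under 0.05. All 3 Il1rn probe sets lie above 0, while those of Il1rap run from -0.57 to 1.48.

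Il1r2, the decoy receptor, measured 5.86, 5.91 and 6.02 after sham and 6.58 to 8.42 (median 6.86) after MCAO in wild type mice, with no overlap. It rose by 1.13 (SE 0.28, adjusted p = 0.00851 by limma). Wild type MCAO array 4 had the 8.42, with the next array at 7.15; without it the rise was 0.91 (SE 0.18, adjusted p = 0.00166). The knockout arrays measured 6.12, 6.49 and 6.50 after sham and 6.20 to 7.12 (median 6.72) after MCAO, which overlap, and the difference of 0.24 (SE 0.28) was not called (adjusted p = 0.55).

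Casp1 and Tnf did not pass the test in either genotype. Casp1 measured 5.24, 5.48 and 5.77 after sham and 5.15 to 6.15 (median 5.75) after MCAO in wild type mice, a difference of 0.28 (SE 0.19, adjusted p = 0.312), and the knockout difference was 0.33 (adjusted p = 0.193). Tnf measured 5.74, 5.83 and 5.87 after sham and 5.87 to 6.63 (median 6.11) after MCAO in wild type mice, a difference of 0.33 (SE 0.13, adjusted p = 0.0927). In knockout mice Tnf measured 5.89, 6.22 and 6.28 after sham and 5.93 to 6.30 (median 6.15) after MCAO, a difference of 0.01. With array weights, the wild type differences of Casp1 (0.39, adjusted p = 0.0394), Tnf (0.31, adjusted p = 0.0279) and Il1a (0.29, adjusted p = 0.0486) were called. The share of all genes called with array weights was not counted.

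**Figure D3:**
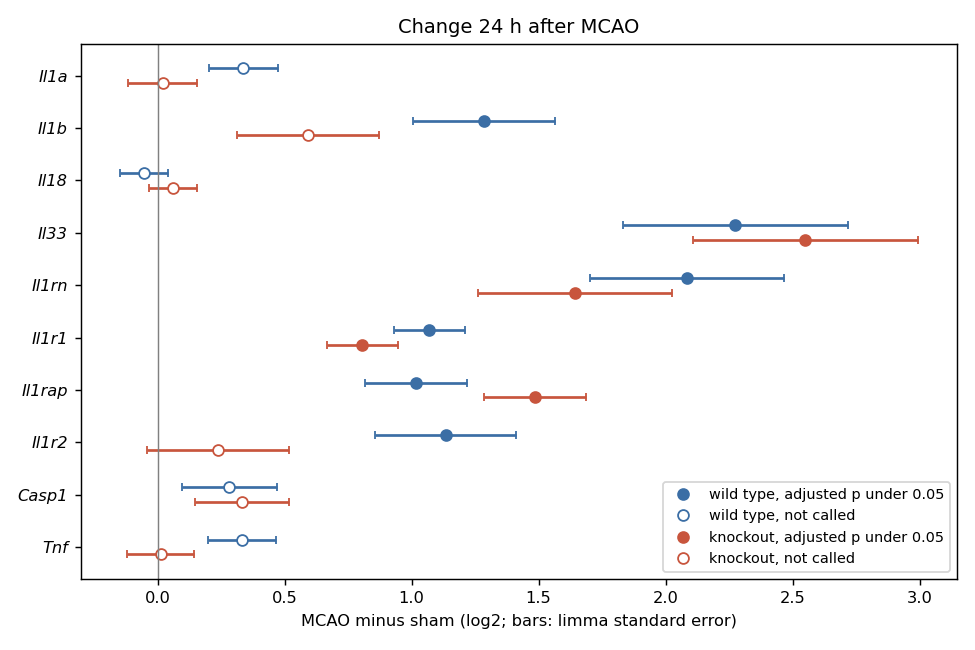
MCAO minus sham difference in log2 signal of the 10 genes in wild type (blue) and knockout (red) mice; bars are limma standard errors, filled points have an adjusted p under 0.05. The pairs of Il1b (1.28 and 0.59) and Il1r2 (1.13 and 0.24) are filled in wild type only, and their difference between genotypes was not called.

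The interaction asked whether the MCAO change differed between genotypes. None of the 10 genes was called by limma, and 1 was at an unadjusted p under 0.05, in a comparison that called 9.59% of all genes. That gene was Il1r2, whose knockout change was 0.90 smaller (interaction -0.90, SE 0.39, adjusted p = 0.126); it was called only without both MCAO arrays numbered 4 (Il1r2 interaction -0.75, adjusted p = 0.0459). Il1b followed at -0.69 (SE 0.39, adjusted p = 0.23), and Il1rap had the largest positive value, 0.47 (SE 0.28, adjusted p = 0.256). The different calls for Il1b and Il1r2 in the genotypes therefore do not show different changes.

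Whether antagonist and decoy moved by the same amount as their partners was tested on differences within each array, by exact two-sided permutation with adjustment over 6 tests. Il1rn minus Il1b grew after MCAO by 0.80 in wild type (0.85 ± 0.26 SD to 1.65 ± 0.32, n = 3 and 7; exact p = 0.0167, adjusted p = 0.05) and by 1.05 in knockout mice (0.62 ± 0.51 to 1.67 ± 0.41; exact p = 0.0333, adjusted p = 0.0667). Knockout and wild type MCAO arrays differed in it by 0.025 (exact p = 0.885). Il1r2 minus Il1r1 shifted by 0.06 in wild type (exact p = 0.917) and by -0.57 in knockout mice (-1.05 ± 0.20 to -1.62 ± 0.29; exact p = 0.0167, adjusted p = 0.05). With the mean of probe sets the knockout value was -0.092. Without knockout MCAO array 2 both knockout shifts passed (1.15 and -0.51, each with an adjusted exact p = 0.0476), though the second shift was smaller than with all arrays. So few arrays allow only coarse steps of p, which decide whether such a test passes, and no conclusion is drawn from it. With all arrays none of the 6 had an adjusted p under 0.05, and 3 had an unadjusted one. The smallest p that this two-sided test can give with 7 against 3 arrays is 0.0167.

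Across the 7 knockout MCAO arrays Il1b was high where 4 other members were high. Pearson r was 0.907 with Il1rn, 0.864 with Il1r2, 0.854 with Il33 and 0.852 with Il1rap (Spearman rho 0.929, 0.893, 0.964 and 0.893). Without the 2 arrays farthest from the median of Il1b, the high arrays 3 and 4, r was 0.867, 0.811, 0.854 and 0.719. Without arrays 2 and 5, which had raised Gapdh differences and low Il1b, r over the other 5 was 0.859, 0.747, 0.737 and 0.787, given as a description. Each of these 4 had an adjusted exact permutation p of 0.0509 for r. Across the wild type MCAO arrays r with the same genes was 0.275, -0.481, 0.0947 and 0.0569, and the only relation with an unadjusted p under 0.05 was with Tnf (r = -0.77, rho = -0.714, r without 2 arrays -0.718, adjusted exact p = 0.124). Of 18 relations none had an adjusted p under 0.05; 5 by Pearson and 4 by Spearman had an unadjusted one. The difference between genotypes in r was not tested.

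**Figure D4:**
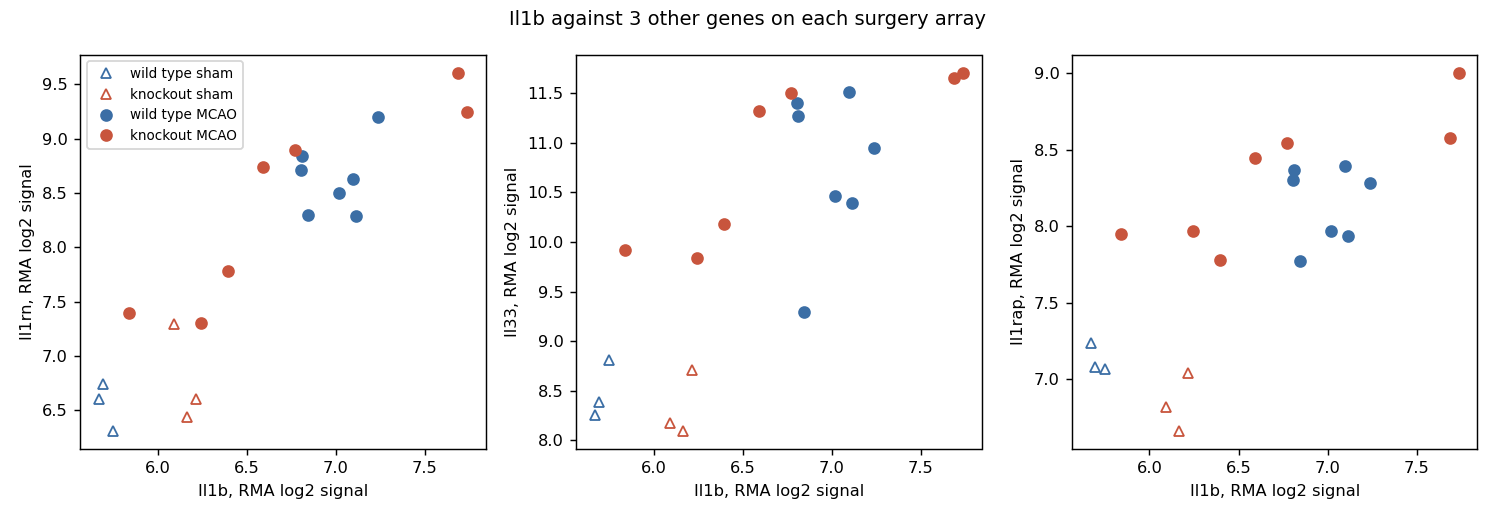
Il1b signal (horizontal) against Il1rn, Il33 and Il1rap (vertical) on each surgery array, all in RMA log2 units; circles are MCAO, open triangles sham, blue wild type and red knockout. The red circles run from low Il1b (5.84) to high (7.74), while the blue circles lie between 6.80 and 7.23.

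Neutrophil and monocyte markers were low on the arrays low in Il1b. Knockout MCAO arrays 2, 5 and 7 averaged 5.44, 5.33 and 5.23 over 10 neutrophil markers, against 5.88 to 6.02 on the other 4. Over 10 monocyte and macrophage markers they averaged 5.42, 5.43 and 5.22, against 5.75 to 6.56. Other cell types moved with the same 3 arrays. Endothelial markers averaged 8.09 to 8.29 on them against 8.56 to 9.0 on the other 4, oligodendrocyte markers 10.87 to 10.95 against 11.14 to 11.46, and neuronal markers 12.15 to 12.22 against 11.99 to 12.06. Lymphocyte markers did not separate them (5.47 to 5.56 against 5.42 to 5.76). Wild type MCAO array 4, highest in Il1r2, had the highest neutrophil average (6.96, against 5.93 to 6.24 on the other 6). The group ranges of the neutrophil average were 5.19 to 5.26 and 5.93 to 6.96 in wild type sham and MCAO, and 5.41 to 5.63 and 5.23 to 6.02 in the knockout. Of the 10 neutrophil markers 2 were called higher in each genotype, S100a8 and S100a9, and 3 were called lower in knockout mice. The interaction called 4 of these 10, all negative (median of the 10 -0.64), against 9.59% of all genes in either direction. With knockout sham array 3 left out, it called 0 of all 18193 genes. Of 11 microglial markers 5 were called lower in each genotype and 2 higher in the knockout, with averages of 7.74 to 7.97 and 6.62 to 7.18 in wild type sham and MCAO and 7.57 to 7.66 and 7.06 to 7.60 in the knockout. Over all genes, 8.68% were called higher and 7.27% lower in wild type mice, and 16.1% and 8.9% in the knockout. The part of the cell types in the cytokine values was not tested.

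The genes whose signal deviated from the group means most like Il1b over the 20 surgery arrays were Ckap4 (r = 0.934), the chemokine gene Ccl3 (0.922) and the leukocyte actin-bundling gene Lcp1 (0.914). Their Spearman rho was lower, 0.747, 0.756 and 0.705. For Il33 the most alike genes were Tgm1 (r = 0.939), the isoprenoid synthesis gene Fdps (0.930) and Ms4a6b (0.927), with rho of 0.905, 0.911 and 0.896. For Casp1 they were Igdcc4 (r = 0.902), Gsta2 (0.882) and Acss1 (0.873), with rho of 0.798, 0.887 and 0.827. All genes on an array share its RNA quality, which differed between arrays, and the correlations are descriptions.

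Around these members, the pathway was followed through 5 lists. Their counts stand beside 8.68% of all genes called higher and 7.27% lower after MCAO in wild type mice. In the knockout the shares were 16.1% and 8.9%, and the interaction called 9.59% in either direction. Calls over all 18193 genes, in either direction, also fell with a sham array left out. Wild type calls went from 2901 to 1425, 1853 and 1667 without wild type sham arrays 1, 2 and 3. Knockout calls went from 4545 to 3699, 2437 and 2341 without knockout sham arrays 1, 2 and 3. Interaction calls went from 1744 to 100, 342 and 975 and to 1657, 165 and 0 in these same fits. Genes known to be induced by IL-1 and TNF were called higher after MCAO for 17 of 21 members in wild type mice and for 15 of 21 in the knockout, none lower. Among them Lcn2, an iron-binding acute phase gene, rose by 5.61 and 4.91, Zfp36, which destabilises cytokine mRNA, by 2.58 and 2.30, and the adhesion gene Icam1 by 2.11 and 2.46. The median was 1.66 in wild type and 1.70 in knockout mice. Saa3, an acute phase gene, rose by 3.66 in wild type and 1.49 in knockout mice (interaction -2.17, SE 0.51, adjusted p = 0.0198 by limma). The neutrophil chemokine gene Cxcl1 rose by 0.95 in wild type and was at -0.21 in the knockout (interaction -1.17, SE 0.29, adjusted p = 0.0243). Both interaction calls were lost without any one of wild type sham arrays 1 and 2 or knockout sham arrays 2 and 3, and 1 of them was lost without knockout MCAO arrays 2 and 5.

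Of 12 IL-1 receptor signalling genes 3 rose in wild type mice and 5 in the knockout, none falling (medians 0.20 and 0.33). The wild type count was 1 without sham array 2 or 3 and 2 without array 1, and the knockout count was 2 and 3 without knockout sham arrays 2 and 3 and 2 after repeated quantile normalization. The adaptor Myd88 rose by 1.65 (SE 0.20) and 1.78 (SE 0.20), and Tollip, a regulator of Irak1, by 0.37 and 0.38. Irak3, an inhibitory member of the Irak family, rose by 0.83 in wild type (adjusted p = 0.0155) and was at 0.10 in the knockout (interaction -0.72, adjusted p = 0.125). The ubiquitin ligase genes Peli1 and Peli2 had positive interactions (0.56 and 0.77, adjusted p = 0.0457 and 0.0412), which no longer passed after median centring, repeated quantile normalization, without knockout MCAO arrays 2 and 5, or without any one of 4 of the 6 sham arrays.

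Of 13 TNF receptor and signalling genes 5 rose in each genotype, none falling (medians 0.33 and 0.38). The receptor Tnfrsf1a rose by 1.60 and 1.46 (SE 0.21), Casp8, the initiator caspase of death receptors, by 1.13 and 1.33, and the apoptosis inhibitor Birc3 by 1.18 and 1.05. Traf2 rose by 0.63 in knockout mice (adjusted p = 0.000884) and was at 0.21 in wild type. The receptor thus rose in both genotypes while its ligand gene Tnf was called in neither. Of 12 inflammasome sensors, adaptors and effectors 6 rose in wild type mice and 7 in the knockout, none falling (medians 0.41 in both). The wild type count was 1, 3 and 3 without wild type sham arrays 1, 2 and 3, and the knockout count was 4, 4 and 3 without knockout sham arrays 1, 2 and 3. The adaptor Pycard rose by 1.07 (adjusted p = 0.0269) and 1.63 (adjusted p = 0.00104), and the sensor Naip2 by 0.61 and 0.66. Txnip rose by 1.05 in wild type and was at 0.40 in the knockout (adjusted p = 0.237), and Gsdmd, the pore former cut by caspase-1, rose by 0.40 in the knockout and was at 0.27 in wild type (adjusted p = 0.0867).

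Among the other IL-1 family ligands and receptors 4 of 12 rose and 2 fell in wild type mice (2 and 2 after median centring or repeated quantile normalization, and 1, 1 and 0 rising without wild type sham array 1, 2 or 3), and none rose and 3 fell in knockout mice (medians 0.30 and -0.27). Il1rapl1 and Il1rapl2, neuronal synaptic relatives of Il1rap, fell by 1.14 and 0.67 in wild type. Il1rl2, the IL-36 receptor, rose by 0.46 in wild type and fell by 0.52 in knockout mice (interaction -0.98, SE 0.20, adjusted p = 0.0176). In 5 of the 12 the interaction was called, all negative, against 9.59% of all genes in either direction. Besides Il1rl2 these were Il18rap (-0.74), Il1f10 (-0.71), Il1f6 (-0.58) and Il1f9 (-0.82). Between genotypes 3 of the 12 were called higher in the knockout after sham, against 3.52% of all genes. None was called after MCAO, where only 8 of all genes were. None of these 12 genes reached the median signal of all genes, and limma called none of the 12 without knockout sham array 3 (5 at an unadjusted p under 0.05), and 1, 2 and 2 without wild type sham array 1 or 2 or knockout sham array 2.

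Genotype itself separated Il18. After MCAO it was lower in knockout mice, by 0.47 on the log2 scale or 1.38-fold, and it was the only one of the 10 genes called; 0.0275% of all genes were called lower there. The 7 knockout arrays measured 9.31 to 9.55 (median 9.35) and the 7 wild type arrays 9.72 to 10.05 (median 9.80), with no overlap (difference -0.47, SE 0.072, adjusted p = 0.0118 by limma). Of 8 genes called in this comparison Il18 had the third smallest p. After sham it was again the only one called, at 9.22, 9.27 and 9.49 in the knockout and 9.84, 9.93 and 9.96 in wild type (difference -0.58, SE 0.11, adjusted p = 0.016), where 2.53% of all genes were called lower. The knockout sham and MCAO arrays together lay between 9.22 and 9.55, below all 10 wild type surgery arrays.

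In naive brain Il18 measured 9.84 to 10.14 (median 9.97) in the knockout and 10.14 to 11.70 (median 10.42) in wild type mice, a difference of -0.58 (SE 0.18, adjusted p = 0.0428 by limma); 8.31% of all genes were called lower. The highest knockout array and the lowest wild type array both rounded to 10.14. The 11.70 was wild type array 6; without it the difference was -0.42 (adjusted p = 0.000975), where 12.4% of all genes were called lower and 24% higher. The call was lost without any one of 10 other naive arrays while array 6 was kept, and it was made in 14 of 14 fits that left out array 6 and a further array (-0.46 to -0.37). Il18 was called lower in all 3 genotype comparisons, which share no arrays (though those after MCAO and sham share an estimate of spread), as were 1500015A07Rik and Pmaip1 and no other gene.

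**Figure D5:**
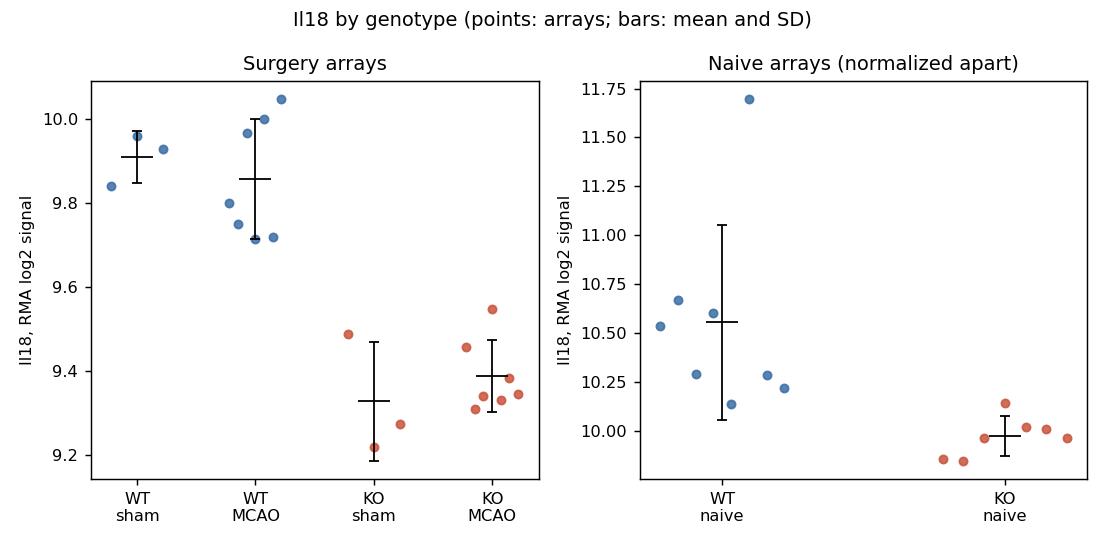
RMA log2 signal of Il18 by group, surgery arrays at left and naive arrays, normalized apart, at right (points are arrays, bars the mean and SD; vertical scales differ). The knockout surgery groups lie below the wild type ones without overlap, while the naive groups touch at 10.14, and 1 wild type naive array is at 11.70.

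The Il18 call after MCAO was lost with the Gapdh covariate (-0.45, adjusted p = 0.0831), without knockout MCAO arrays 2 and 5 (-0.44, adjusted p = 0.194) and in a fit to the MCAO arrays alone (-0.47, adjusted p = 0.0546). That after sham was lost with repeated quantile normalization (-0.38, adjusted p = 0.0689), with the actin covariate (-0.56, adjusted p = 0.0855), and without wild type sham array 2 or knockout sham array 2 or 3 (-0.56, -0.53 and -0.56). Of all genes, 0, 17 and 0 were called after sham in these last 3 fits, against 1101 with all arrays. After MCAO 2 of all genes were called without knockout MCAO arrays 2 and 5, against 8 with all arrays. Il18 has 1 probe set, so no second measurement on these arrays checks it. Of 11 microglial markers none was called by limma between genotypes after MCAO, though all 11 differences were positive (median 0.37). In the interaction 4 were called, all positive, against 9.59% of all genes in either direction. Without knockout sham array 3 the interaction called 0 of all 18193 genes. None of the 11 was called between genotypes after sham. In naive brain 4 were higher in the knockout, against 6.37% of all genes, and 8 without wild type array 6, against 24%; their average was 8.35 to 8.5 against 8.00 to 8.17 in wild type; their part in the Il18 result was not tested.

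Genes beside Il18 on the chromosome were read with it, 10 on each side in the RefSeq gene order. After MCAO 0 of 20 were called by limma (6 at an unadjusted p under 0.05). After sham Tmprss5 was higher (0.51) and Pts lower (-0.51), where 3.52% of all genes were called higher and 2.53% lower. In naive brain Zw10 and Tmprss5 were higher (0.25 and 0.46) and Bco2 and Tex12 lower (-1.0 and -0.37). There 6.37% of all genes were called higher and 8.31% lower. Without wild type naive array 6 these 4 neighbours passed again (0.21, 0.52, -0.93 and -0.27). In that fit 9 of the 20 were called in all, 5 higher and 4 lower, against 24% and 12.4% of all genes. Bco2, the immediate neighbour, differed from wild type by -0.39, -0.36 and -1.0 after MCAO, after sham and in naive brain, called in the last (adjusted p = 5.16e-05).

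The other 9 genes were called between genotypes in no comparison. After sham Il1b was higher in the knockout by 0.45 (SE 0.33, adjusted p = 0.394 by limma) and Il1r2 by 0.44 (SE 0.33, adjusted p = 0.409). The sham groups did not overlap in either, nor in Tnf, Il1r1 and the brightest Il1rap probe set. The share of all genes without overlap was not counted, and the sham groups also differed in the actin control. Il1b and Il1r2 were called in a fit to the sham arrays alone (adjusted p = 0.0192 and 0.0394), in which their spread is not pooled with that of the MCAO arrays. The share of all genes called in that fit was not counted either. After MCAO Il1r2 was at -0.46 (SE 0.22, adjusted p = 0.281) and Il1b at -0.24 (SE 0.22, adjusted p = 0.576). Tnf was at 0.32 after sham (adjusted p = 0.201), 0.00 after MCAO and 0.02 in naive brain.

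In naive brain the other 9 differences ran from -0.22 for Il1r2 to 0.19 for Il33, and without wild type array 6 from -0.12 for Il1r2 to 0.38 for Il33. Il33 measured 9.18 to 9.65 (median 9.45) in the knockout and 8.69 to 10.55 (median 9.04) in wild type mice. Without wild type array 6, which had the 10.55, Il33 was higher in the knockout by 0.38 (adjusted p = 0.00743 by limma). In that fit 24% of all genes were called higher, and the array medians of the naive groups differed, so the call is not particular to Il33. Casp1 was at -0.12 with array 6 and 0.087 without it, and Il1a at -0.04 and 0.11, called in neither. The brightest Il1rap probe set on the naive arrays was a different one, 1439697, at 7.93 to 8.18 in the knockout and 7.35 to 10.07 in wild type mice (-0.16, adjusted p = 0.754); without array 6 that probe set was at 0.11, uncalled, and another, 1449585, was lower (-0.23, adjusted p = 0.0109). The Il1rn probe sets disagreed in naive brain: 1425663 was higher in the knockout by 0.48 (adjusted p = 0.00614), 1451798 lower (-0.53, adjusted p = 0.00415) without overlap, and the brightest, 1423017, at -0.11 (adjusted p = 0.52 over probe sets). The weak second probe set of Il1r1, 1459777, was lower by 0.32 in the knockout (adjusted p = 0.00645), while the first was at 0.02. These 3 probe set calls were made without array 6 too (0.55, -0.44 and -0.32).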

How the data were processed

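The deposited table holds log2 signals of 45101 probe sets on 35 arrays, made by the authors with RMA per the submitters' processing notes; version and build are not given in the sources used here, and naive arrays were normalized apart per the labels. The number of arrays limits the precision. Of the probe sets 34945 had 1 gene symbol in the platform annotation, 932 several, 9160 none and 64 were controls; 34741 of them had an Entrez ID found in RefSeq. For a gene with several probe sets, the brightest on average in a given fit stood for it, which left 18193 genes. Probe set numbers are printed without their suffix. Tests of single probe sets were adjusted over all 34945.

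Linear models with limma 3.58.1 (lmFit, then eBayes, under R 4.3.3) took the 20 surgery arrays together and the 15 naive arrays on their own, and Benjamini-Hochberg adjusted p-values under 0.05 were called. Standard errors are limma's moderated ones, and tests are two-sided. Within-array differences and correlations had exact permutation tests (Python 3.11.15, scipy 1.17.1). The pipeline was tested on simulated data. The members and all lists were chosen with earlier results of these data known. All members are named; of each pathway list up to 3 called members with the smallest p per comparison were eligible, with those called in the interaction, and for likeness the 3 highest correlations. Neighbours of Il18, marker genes and genes shared by the genotype calls were named after their values were seen. Promoter windows come from RefSeq (GRCm38.p6).

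Other settings were a robust prior with an intensity trend, a filter on genes under the median signal, the mean of a gene's probe sets, centring on medians, a second quantile normalization, weights for arrays, a replicate block, covariates for the Gapdh and actin controls, a fit to the compared groups alone, and each array left out in turn. Leaving out pairs of arrays, the list counts under other settings, and neighbour and microglial counts without wild type naive array 6 were added after seeing the data. The receptor gene that the knockout targets is not reported here.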

Additional observations from a re-analysis of the deposited data

Results flagged for a closer look

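In 10 of 40 groups of 7 or 8 arrays tested, the highest or lowest array lay far from the others; chance gives about 1 in 20. Wild type naive array 6 accounts for 6 of them: it was the highest of 8 for Il18 (11.70, next 10.67), Il33 (10.55, next 9.43), Il1rap (10.07, next 8.51), Casp1 (7.68, next 6.33), Il1r2 (7.31, next 6.67) and Il1a (5.71, next 4.6). This is the array with Gapdh and actin control differences of 3.51 and 4.88. In the knockout naive group array 4 was highest for Casp1 (6.43, next 6.14) and array 7 lowest for Il1rap (7.93, next 8.07). Wild type MCAO array 4 was highest for Il1r2 (8.42, next 7.15), and knockout MCAO array 7 lowest for Il1r1 (7.68, next 8.19).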

How the results depend on the processing

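The 6 genes called after MCAO in wild type and the 4 in knockout mice were called in each other setting in which they were tested. The count for genotype after MCAO (1, Il18) was 0 with the replicate block (-0.47, adjusted p = 0.0504), the Gapdh covariate, only the arrays compared and without knockout MCAO arrays 2 and 5, and 1 without any single array. The count after sham (1) was 0 with repeated quantile normalization and with the actin covariate, 2 with array weights (Il18, Tnf) and 3 with only the arrays compared (Il18, Il1b, Il1r2), and 0 to 1 without single arrays. The naive count (1) was 0 without dim genes and with the replicate block (-0.63, adjusted p = 0.0594), 3 with array weights (Il18, Il1b, Il33), 2 with either covariate (Il18, Il33), and 0 to 2 without single arrays. The interaction count (0) was 1 without both arrays numbered 4. The share of all genes called was not counted for array weights, the replicate block, the covariates or fits to the compared arrays alone. Nor was it counted without both arrays numbered 4. Without single arrays, Il1rn minus Il1b ran from 0.88 to 1.34 in knockout mice and from -0.054 to 0.13 between genotypes after MCAO, and Il1r2 minus Il1r1 from -0.16 to 0.20 in wild type and from -0.67 to -0.47 in knockout mice. Without knockout MCAO array 2 both knockout differences passed (adjusted exact p = 0.0476), from which no conclusion is drawn, as so few arrays give only coarse p-values. The cause of these changes was not tested. Of 47 values not called, 16 of 1417 alternatives were called, none in the opposite direction, and 81 changed sign uncalled.

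Replicate numbers were not used as pairs in the main fits. Same-numbered arrays deviated together with r over 0.1 in 1 of 3, 0 of 3, 2 of 7, 1 of 3 and 5 of 7 pairs (wild type, knockout, genotypes after MCAO, after sham, naive). Pairs with different numbers were not compared with these, so whether the numbers pair the arrays, above all the naive ones, was not tested. In the surgery set 5 of the 10 genes, and in the naive set 3, reached the median signal; small changes in the others, and any change between the 3 sham arrays of each genotype, are less sure.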
